A study of Mus musculus with 6 samples.

Results

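Collagens are secreted or membrane-anchored proteins built from 3 chains wound into a triple helix, and each chain is encoded by its own gene. The collagen chain genes were taken here as every gene of the deposited count table whose symbol is Col, a type number, the letter a and a chain number. The rule found 44 genes among 21898, of which 41 had enough counts to be tested among 14736 tested genes. They comprise 11 fibrillar collagens, 8 basement membrane collagens (the 6 type IV chains, Col15a1 and Col18a1) and 25 other collagens.

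Fibrillar collagens assemble into the banded fibrils of connective tissue. Type IV collagen forms the sheet-like network of basement membranes, which in the fetal ovary surround the germ cell cords and the vessels, and collagens XV and XVIII are attached to that zone. The remaining collagens form beaded filaments, sit on the surface of fibrils, span the plasma membrane or anchor epithelia. Mesenchymal cells of the stroma are the main source of fibrillar collagens in most organs.

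RNA was sequenced from wild-type fetal mouse ovaries isolated at 14.5 days post coitum and cultured for 3 days in serum-free DMEM/F12 medium. The treated group (n = 3 libraries) received 15 µM NAPQI (N-acetyl-p-benzoquinone imine), the reactive metabolite of acetaminophen, and the control group (n = 3 libraries) received an equal volume of ethyl acetate, the solvent. The series concerns the effect of acetaminophen on meiosis of fetal oocytes, and the comparison made here asks how collagen transcripts differ between the treated and the control ovaries. Whole cultured ovaries mix many cell types, and the labels do not tie the replicates to litters or separate cultures. The p-values therefore measure only how these libraries vary, which may be technical.

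Libraries held 13879347 to 17258609 counted reads. Markers of the labelled tissue were abundant, with Foxl2, a transcription factor of pregranulosa cells (the supporting cells that enclose oocytes), at 368 ± 36.2 and Ddx4, a germ cell RNA helicase, at 164 ± 21.4 in the 3 controls (mean ± SD, in CPM, which is counts scaled to 1e+06 reads of a library). On the leading principal component of log2 CPM, control replicate 3 scored -35.7 and the rest -14.9 to 26.4, and it had the largest share of globin counts, 0.0195% against 0.00214% to 0.00665%.

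The promoters of 4 chains that the results below turn on are shown here. Col3a1 and Col1a2 are abundant fibrillar chains, and Col1a1, which lies between them in mean FPKM, had no promoter window. Col11a1 is the fibrillar chain with the smallest p, and Col25a1 is a chain with the opposite sign of difference. The RefSeq promoter table, in build GRCm38.p6, held windows for 35 of the 44 genes. Col1a1, Col2a1, Col5a2, Col4a3, Col9a3, Col12a1, Col14a1, Col22a1 and Col26a1 had none. Each line gives the 250 bases before the transcription start, read 5′ to 3′ in the direction of the gene, and all 4 genes lie on the plus strand. Capitals mark matches on either strand to common promoter motifs. The motif TATAAA is the core of the site bound by the general transcription machinery, and its reverse complement reads TTTATA. The motif CCAAT is bound by the NF-Y complex, and its reverse complement reads ATTGG. The motif GGGCGG, the GC box, is bound by Sp1-type factors, and its reverse complement reads CCGCCC.
Col3a1 (chr1:45311288-45311537, plus strand): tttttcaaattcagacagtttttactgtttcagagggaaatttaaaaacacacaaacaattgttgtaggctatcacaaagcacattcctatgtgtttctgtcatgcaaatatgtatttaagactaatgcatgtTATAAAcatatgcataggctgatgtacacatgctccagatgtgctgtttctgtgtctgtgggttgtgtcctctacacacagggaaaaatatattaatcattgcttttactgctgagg
Col1a2 (chr6:4505368-4505617, plus strand): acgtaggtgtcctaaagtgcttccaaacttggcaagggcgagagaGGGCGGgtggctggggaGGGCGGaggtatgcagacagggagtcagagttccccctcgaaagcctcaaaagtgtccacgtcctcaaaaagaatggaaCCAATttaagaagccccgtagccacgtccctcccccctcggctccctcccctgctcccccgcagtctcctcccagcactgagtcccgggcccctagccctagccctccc
Col11a1 (chr3:114030290-114030539, plus strand): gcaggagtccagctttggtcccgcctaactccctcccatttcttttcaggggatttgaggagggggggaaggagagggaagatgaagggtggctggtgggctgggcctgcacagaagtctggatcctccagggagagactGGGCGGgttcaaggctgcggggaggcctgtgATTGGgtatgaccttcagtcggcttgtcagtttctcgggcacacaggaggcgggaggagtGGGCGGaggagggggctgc
Col25a1 (chr3:130180595-130180844, plus strand): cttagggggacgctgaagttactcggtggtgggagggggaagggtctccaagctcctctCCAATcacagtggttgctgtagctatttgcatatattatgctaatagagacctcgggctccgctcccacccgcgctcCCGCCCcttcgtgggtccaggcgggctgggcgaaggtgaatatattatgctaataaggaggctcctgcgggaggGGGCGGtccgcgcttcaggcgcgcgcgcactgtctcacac

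The sequences differ in these letters. The Col3a1 stretch holds a single TATAAA, whose first base lies at -117 from the start, and no GC box. The Col1a2 stretch holds GGGCGG at -205 and -188 and CCAAT at -109. Col11a1 and Col25a1 each hold a CCAAT motif and a pair of GC boxes, in Col11a1 at -79, -110 and -19 and in Col25a1 at -191, -114 and -40. Over windows of 300 bases that include 50 bases after the start, a GC box was found in 23 of the 38 collagen windows (60.5%) and in 35.7% of all 32851 windows of the table. A CCAAT motif was found in 34.2% of collagen windows and 37.4% of all windows, and a TATAAA in 13.2% and 13.6%. By class, a GC box was present in 6 of 8 fibrillar windows, 5 of 8 basement membrane windows and 12 of 22 other windows. In these stretches no match overlaps another. A match is a description and not a binding site, and no match says only that these letters are absent from the window.

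Levels of different chains were compared per length, as the deposited FPKM (fragments per kilobase of the gene length given in the table and per 1e+06 counted reads). Of the 44 chains, 3 had a mean of at least 100 FPKM over the 6 libraries, 15 at least 10 and 34 at least 1. The 3 highest were Col3a1, the chain of reticular type III fibrils, at a mean of 189 FPKM and rank 119 among all 21898 genes; Col6a1, a chain of the beaded filaments of collagen VI, also at 189 FPKM and rank 121; and Col1a1, a chain of type I fibrils, at 171 FPKM and rank 138. Among controls the levels of these 3 chains overlapped (193 to 224 FPKM for Col3a1, 172 to 225 FPKM for Col6a1 and 176 to 205 FPKM for Col1a1), so their order is not fixed beyond the spread between libraries. Together with Col1a2 they made up 52.6% to 56.7% of the summed collagen FPKM in controls and 51.8% to 54.3% in NAPQI libraries.

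**Figure D1:**
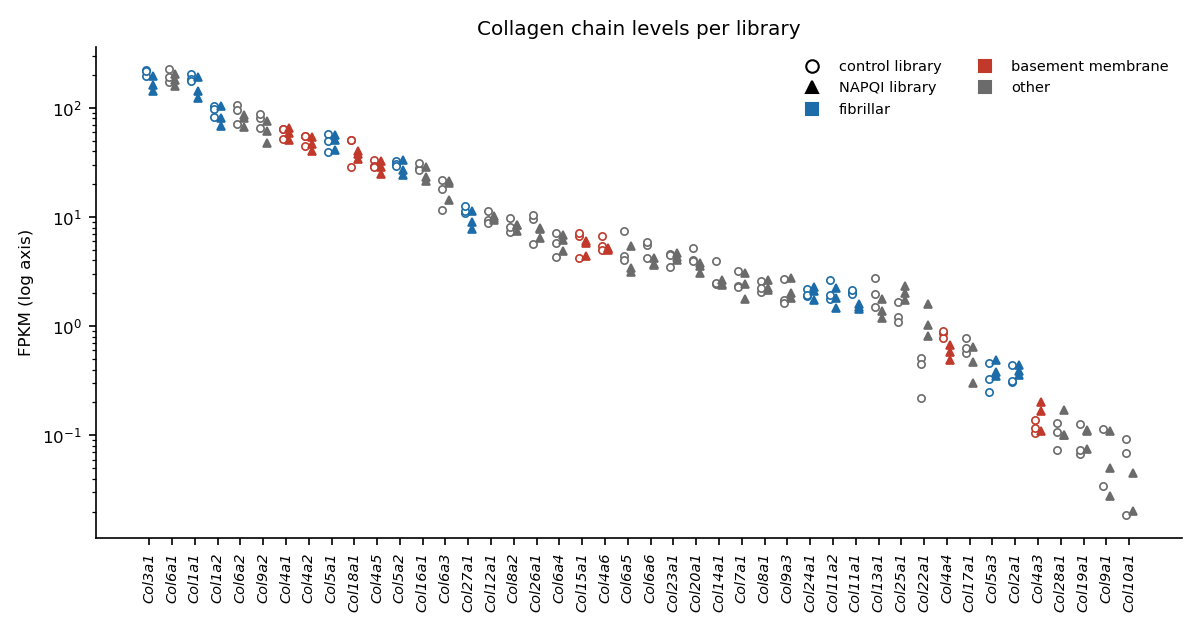
FPKM of each of the 44 collagen chain genes in each library on a log axis, ordered by mean FPKM, with open circles for the 3 controls, filled triangles for the 3 NAPQI libraries and colours for the 3 classes; values of 0 (Col9a1 in control replicate 3 and Col10a1 in NAPQI replicate 1) cannot be drawn on the log axis. Levels run from a mean of 189 FPKM for Col3a1 to 0.041 FPKM for Col10a1, and control and NAPQI symbols overlap for most chains.

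All 3 classes were present in quantity. Fibrillar collagens summed to 639, 548 and 590 FPKM in control replicates 1, 2 and 3 and to 600, 476 and 411 FPKM in NAPQI replicates 1, 2 and 3. Basement membrane collagens summed to 216, 165 and 212 FPKM in the controls and 201, 185 and 160 FPKM with NAPQI. Other collagens summed to 532, 401 and 496 FPKM in the controls and 482, 427 and 367 FPKM with NAPQI. In each class the groups overlapped and NAPQI replicate 3 was the lowest of the 6 libraries. The fibrillar sum was 2.97, 3.32 and 2.79 times the basement membrane sum in the controls and 2.98, 2.57 and 2.57 times with NAPQI, so NAPQI replicate 1 lay within the control range and the other NAPQI libraries below it.

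No collagen gene passed in the test over all genes: 0 of 41 had an adjusted p under 0.05 by the quasi-likelihood test of edgeR, against 0.0814% of all tested genes (12 genes). The smallest adjusted p among collagens was 0.188, for Col22a1. At an unadjusted p under 0.05, 11 collagens were counted (9.24% of all tested genes were), 9 with a negative and 2 with a positive log2 fold change, where 5.03% and 4.21% of all tested genes were counted in these directions. These are 22% and 4.88% of the tested collagens. Most differences were small: 37 of 41 collagens, or 90.2%, had a log2 fold change of absolute size under 0.5, against 92.2% of all tested genes. DESeq2 and the exact test of edgeR each called 1 collagen, Col22a1 (0.509% and 0.78% of all genes), and limma-voom called 0 (0.00679%). Of the 44 collagens in the authors' deposited table, 0 had an adjusted p under 0.05 (0.124% of its genes did), 6 had an unadjusted p under 0.05 (4.63% of its genes did), and the smallest adjusted p was 0.344, also for Col22a1.

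The sign of the difference was mostly negative. Of the 41 tested collagens 30 had a negative log2 fold change (52.6% of all tested genes did), with a median of -0.16 against -0.01 over all tested genes. The median was -0.19 for the 11 fibrillar collagens (9 negative, range -0.47 to 0.21), -0.17 for the 8 basement membrane collagens (7 negative, range -0.56 to 0.37) and -0.13 for the 22 tested other collagens (14 negative, range -0.55 to 1.52). These are descriptions of the lists, with no test between classes. The within-group SD of a library's class median was 0.178 for fibrillar, 0.158 for basement membrane and 0.177 for other collagens on the log2 scale. The class medians differ from each other by less than this SD. It is the SD of a single class, however, and does not measure the spread of a difference between classes within a library.

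**Figure D2:**
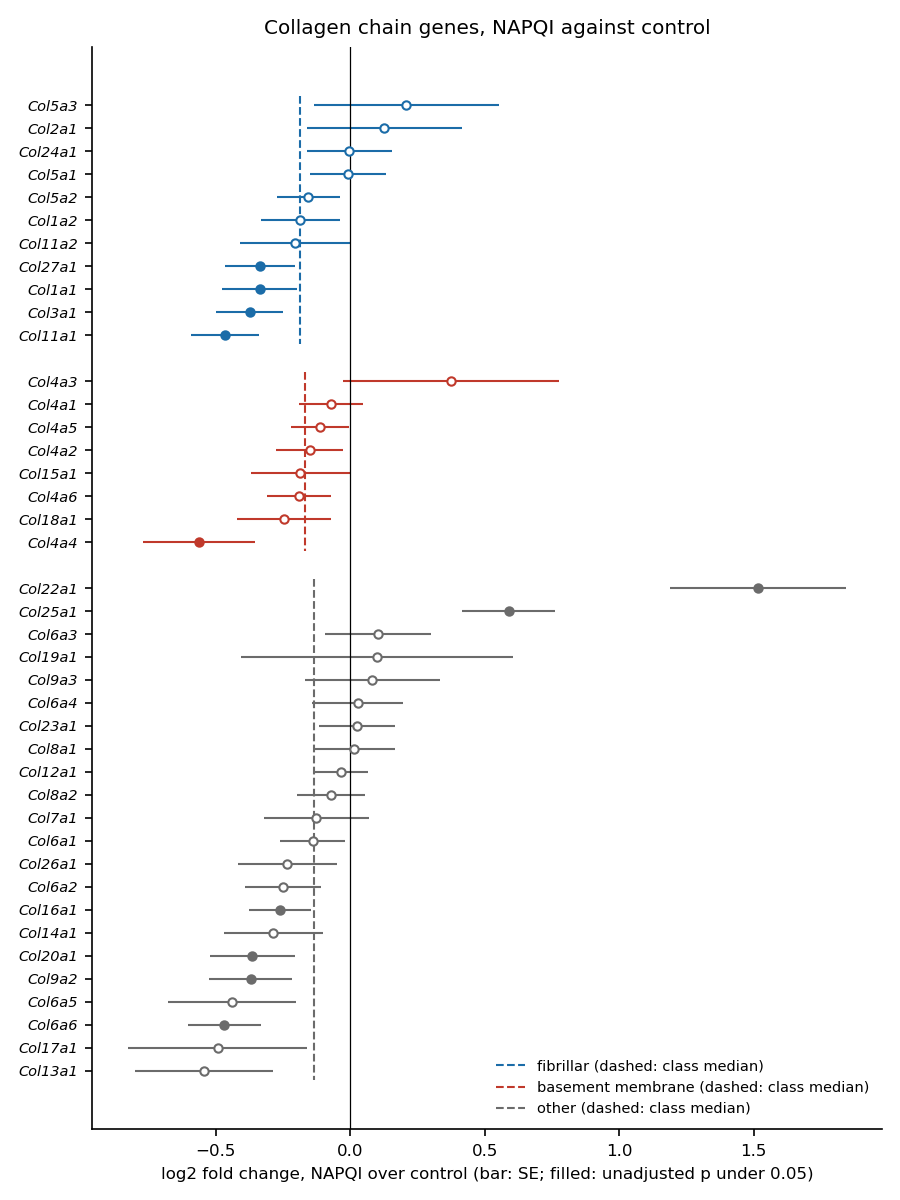
Log2 fold change (NAPQI over control, edgeR) of each of the 41 tested collagen chains with its standard error as a bar, grouped by class, with filled points for an unadjusted p under 0.05 and a dashed line at each class median. The medians lie at -0.19, -0.17 and -0.13, and Col22a1 at 1.52 and Col25a1 at 0.59 stand apart on the positive side.

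The size of the negative medians depended on which libraries were included. NAPQI replicate 3 was the lowest of all 6 for 20 of the 41 tested collagens, or 48.8%, against 20.8% of all tested genes. Within the NAPQI group, replicate 1 was the highest library for 70.7% of tested collagens (36.3% of all genes). Within the control group, replicate 2 was the lowest for 68.3% (34.8% of all genes). The median of each class per library, taken after subtracting each gene's average log2 CPM, ran at 0.22, 0.06 and 0.11 for fibrillar collagens in the controls and at 0.18, -0.13 and -0.29 in NAPQI replicates 1, 2 and 3. Basement membrane collagens were at 0.22, -0.07 and 0.19 in the controls and 0.08, -0.06 and -0.25 with NAPQI. Without NAPQI replicate 3 the medians of all 3 classes were -0.05, and 3 collagens had an unadjusted p under 0.05 with a negative log2 fold change in place of 9 (3.18% of all tested genes in that fit). Without control replicate 3 the count was 5 (2.38% of all genes) and the medians were -0.15 for fibrillar, -0.09 for basement membrane and -0.08 for other collagens. Without NAPQI replicate 2 the count was 2 (3.28%), without control replicate 2 it was 16 (7.78%) and without control replicate 1 it was 7 (6.49%) with a fibrillar median of -0.11. Without NAPQI replicate 1 the count was 13 (5.01%) and the fibrillar median was -0.36. The 2 positive ones were counted in each of these fits, where 2.24% (without control replicate 3) to 7.29% (without control replicate 2) of all tested genes were counted in that direction.

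Several marker lists shared their lowest libraries with the collagens. The sum of 10 mesenchyme markers (among them Pdgfra, Tcf21 and Mfap4, none at 0 in all libraries) was 806, 683 and 879 CPM in control replicates 1, 2 and 3 and 797, 713 and 628 CPM in NAPQI replicates 1, 2 and 3. Like the collagen sums, it was lowest in control replicate 2 among controls and in NAPQI replicate 3 overall. The same held for pregranulosa markers, with a sum of 2845, 2249 and 2532 CPM in the controls and 2494, 2475 and 2194 CPM with NAPQI. It also held for macrophage markers, at 127, 98.3 and 134 CPM in the controls and 96.6, 104 and 88.7 CPM with NAPQI, and for chondrocyte markers, at 46.2, 29.3 and 45.3 CPM and 37.8, 33.7 and 28.7 CPM. Mesenchyme was thus not the only list with these lowest libraries, and the erythroid list below had them too. Of the 9 tested mesenchyme markers 0 had an adjusted p under 0.05 by edgeR. A negative log2 fold change was found for 7 (52.6% of all tested genes had one). Of these, 3 had an unadjusted p under 0.05 (Pdgfra, Tcf21 and Mfap4), where 5.03% of all tested genes were counted. The median was -0.03 (-0.01 over all tested genes). In the macrophage list 8 of 10 were negative (median -0.29), 3 of them with an unadjusted p under 0.05. The pregranulosa list had 6 of 10 negative (median -0.02), with 1 in each direction at that threshold. The chondrocyte list had 5 of 8 negative (median -0.39). Germ cell markers were arranged the other way round, with a sum of 1713, 1953 and 1736 CPM in the controls and 1673, 1966 and 2172 CPM with NAPQI. The sum of endothelial markers was 182 to 267 CPM in the controls and 202 to 251 CPM with NAPQI, and that of perivascular and smooth muscle markers 282 to 312 and 301 to 359 CPM. Surface epithelium markers summed to 589 to 1024 and 667 to 905 CPM and mesonephric epithelium markers to 160 to 192 and 164 to 172 CPM. Erythroid markers summed to 34.8, 30.1 and 204 CPM in control replicates 1, 2 and 3. With NAPQI the erythroid sums were 69.1, 36.2 and 21.9 CPM, and Hba-a2 was at 0 in all libraries. Apart from Hba-a2 no marker of these lists was at 0 in all libraries. In whole ovaries fewer cells of a type and less RNA per cell cannot be told apart, and the part of cell makeup in the collagen values was not tested.

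The fibrillar collagens are described first, from the most to the least abundant. Col3a1 stood at 2200, 1909 and 2188 CPM in the controls and at 1929, 1560 and 1367 CPM in NAPQI replicates 1, 2 and 3. NAPQI replicates 2 and 3 lay below all controls, and NAPQI replicate 1 lay just above control replicate 2. The log2 fold change was -0.37 ± 0.12 (SE; edgeR adjusted p = 0.403). Col1a1 stood at 1347, 1220 and 1187 CPM in the controls and at 1247, 923 and 802 CPM with NAPQI, again with NAPQI replicate 1 inside the control range and the other NAPQI libraries below it. Its log2 fold change was -0.34 ± 0.14 (edgeR adjusted p = 0.501). Col1a2 encodes the other chain of collagen I and stood at 1283, 1019 and 1241 CPM in the controls and at 1288, 1000 and 826 CPM with NAPQI. The groups overlapped, and NAPQI replicate 1 was the highest library of all (log2 fold change -0.19 ± 0.15, edgeR adjusted p = 0.701).

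Collagen I joins a pair of Col1a1 chains with a single Col1a2 chain. Per length, the FPKM of Col1a1 was 1.99, 2.27 and 1.81 times that of Col1a2 in control replicates 1, 2 and 3 and 1.83, 1.75 and 1.84 times in NAPQI replicates 1, 2 and 3. The groups overlapped in this ratio. Against Col3a1, the FPKM of Col1a1 was 0.916, 0.956 and 0.812 times as high in the controls and 0.967, 0.884 and 0.877 times with NAPQI, also with overlap.

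Collagens V, XI, XXIV and XXVII are less abundant fibrillar chains, of which collagens V and XI set the diameter of the fibrils of collagens I and II. Col5a1 stood at 490, 338 and 434 CPM in the controls and 478, 428 and 347 CPM with NAPQI, with full overlap (log2 fold change -0.01 ± 0.14, edgeR adjusted p = 0.99). Col5a2, the neighbour of Col3a1 on chromosome 1, had a log2 fold change equal to -0.16 ± 0.12 (edgeR adjusted p = 0.69). Col27a1, expressed in cartilage and other tissues, stood at 143, 148 and 169 CPM in the controls and 148, 116 and 100 CPM with NAPQI. NAPQI replicate 1 lay at the level of control replicates 1 and 2, and the log2 fold change was -0.34 ± 0.13 (edgeR adjusted p = 0.455).

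Col11a1, a regulator of fibril diameter, was the fibrillar gene whose libraries did not overlap. It stood at 26.0, 25.0 and 27.9 CPM in the controls and at 18.9, 19.9 and 18.2 CPM with NAPQI. Both groups were tight, and all NAPQI libraries lay below all controls, which was the case for 7.13% of all tested genes and 4 collagens. The log2 fold change was -0.47 ± 0.13 (edgeR adjusted p = 0.297), and it lay between -0.53 and -0.42 over the 15 alternative settings, with adjusted p from 0.0979 to 0.998. Col11a2, the other collagen XI chain, was at 12.1, 13.3 and 18.5 CPM in the controls and 15.5, 12.4 and 10.01 CPM with NAPQI, with overlap (log2 fold change -0.20 ± 0.21, edgeR adjusted p = 0.784). The low-abundance chains Col24a1, Col5a3 and Col2a1, the last a chain of cartilage fibrils, had log2 fold changes of -0.0037, 0.21 and 0.13 with mean levels of 2.02, 0.377 and 0.374 FPKM.

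The markers of cartilage cells were low in all libraries. The 12 chondrocyte markers summed to 29.3 to 46.2 CPM in the controls and 28.7 to 37.8 CPM with NAPQI, and Matn1 had 4 counts over all 6 libraries. None of the 12 was at 0 in all libraries. Of the 8 tested ones 2 had an unadjusted p under 0.05 with a negative and 1 with a positive log2 fold change. Over all tested genes 5.03% and 4.21% were counted in these directions. The median was -0.39 (-0.01 over all tested genes). The part of cartilage cells in the values of Col11a1, Col27a1 and Col9a2 was not tested.

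**Figure D3:**
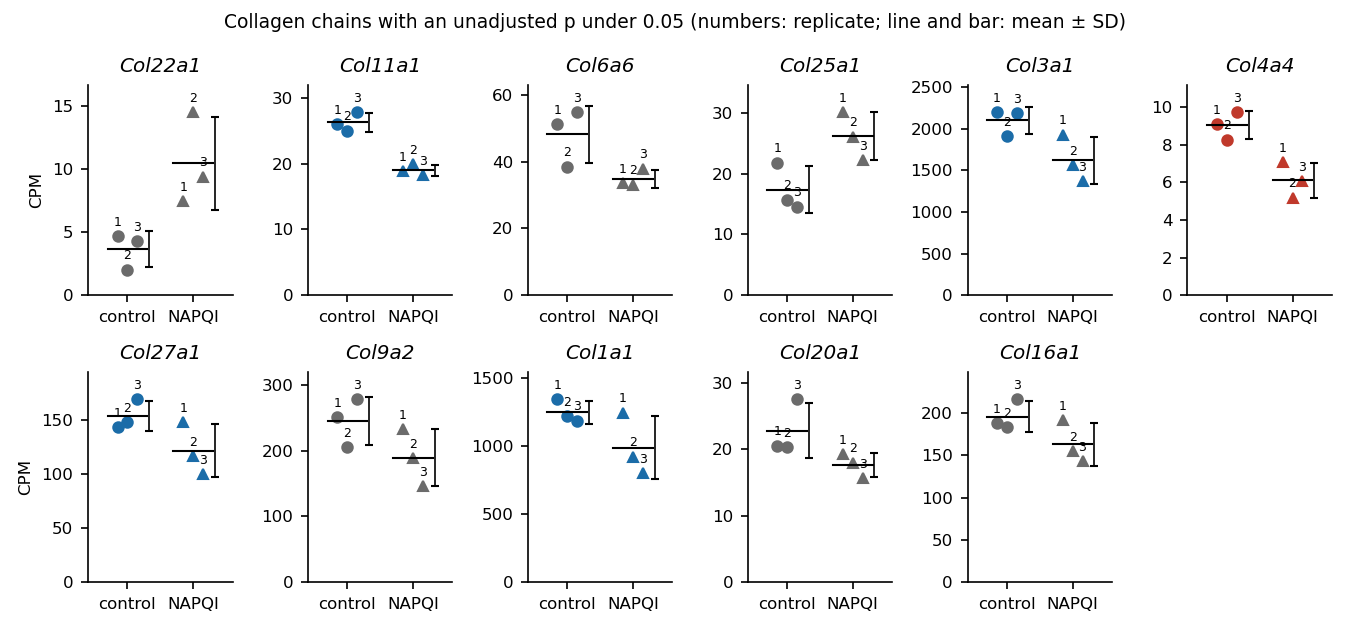
CPM in each library of the 11 collagen chains with an unadjusted p under 0.05, ordered by p, with replicate numbers beside the points, a line at the group mean and a bar for the SD (n = 3 per group). Col22a1 and Col25a1 have all 3 NAPQI libraries above all controls, Col11a1, Col6a6, Col4a4 and Col20a1 have them below, and in Col3a1, Col27a1, Col9a2, Col1a1 and Col16a1 NAPQI replicate 1 lies within the control range.

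Among basement membrane collagens the most abundant chains, Col4a1 and Col4a2, differed little between the groups. Col4a1 and Col4a2 form the common network of collagen IV. Col4a1 stood at 474, 390 and 489 CPM in the controls and 487, 430 and 370 CPM with NAPQI, and Col4a2 at 362, 294 and 375 CPM in the controls and 356, 307 and 265 CPM with NAPQI. For both genes control replicate 3 was the highest and NAPQI replicate 3 the lowest of the 6 libraries, and the groups overlapped. Their log2 fold changes were -0.07 ± 0.12 (edgeR adjusted p = 0.878) and -0.15 ± 0.12 (edgeR adjusted p = 0.715). The FPKM of Col4a1 was 1.16, 1.17 and 1.16 times that of Col4a2 in the controls and 1.21, 1.24 and 1.24 times with NAPQI, so in this ratio all NAPQI libraries lay above all controls by a small margin. No p is given for the ratio, which was singled out after its values were seen.

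The type IV genes lie in head-to-head pairs. In GRCm39 coordinates of the deposited table, Col4a1 (chromosome 8, 11248423 to 11362826, minus strand) and Col4a2 (11362805 to 11499287, plus strand) overlap by 22 bases at their starts, and their RefSeq promoter windows share 78 bases. How reads from these 22 bases were counted is not known, since the counting settings are not stated in the labels. Col4a4 (chromosome 1, 82426144 to 82564570, minus strand) and Col4a3 (82564642 to 82699780, plus strand) are 71 bases apart. Col4a6 and Col4a5 on chromosome X are 1308 bases apart.

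Members of a head-to-head pair did not have the same values in all cases. Col4a4, a chain of the collagen IV network of kidney and other specialised basement membranes, stood at 9.12, 8.27 and 9.75 CPM in the controls and 7.08, 5.19 and 6.08 CPM with NAPQI, so every NAPQI value lay under every control value. Its log2 fold change was -0.56 ± 0.21 (edgeR adjusted p = 0.434). Its neighbour and partner chain Col4a3 stood at 1.05, 1.40 and 1.18 CPM in the controls and 1.99, 1.08 and 1.66 CPM with NAPQI, with overlap (log2 fold change 0.37 ± 0.40, edgeR adjusted p = 0.793). The difference between the 2 genes was not tested, and the low counts of Col4a3 give it a wide error. In the X-linked pair Col4a5 stood at 222, 199 and 198 CPM in the controls and 216, 190 and 166 CPM with NAPQI (log2 fold change -0.11 ± 0.11, edgeR adjusted p = 0.766), and Col4a6 at 53.4, 43.7 and 40.5 CPM in the controls and 41.6, 40.0 and 38.9 CPM with NAPQI (log2 fold change -0.19 ± 0.12, edgeR adjusted p = 0.627). Both overlapped between the groups.

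Col18a1 and Col15a1 encode the multiplexins, basement membrane collagens that carry sugar side chains and release endostatin-like fragments. Col18a1 stood at 352, 203 and 366 CPM in the controls and 262, 278 and 237 CPM with NAPQI. Control replicate 2 lay below every NAPQI library and the other controls above them, so the control group was wide and the NAPQI group narrow (log2 fold change -0.25 ± 0.17, edgeR adjusted p = 0.67). The value was -0.47 without control replicate 2 (edgeR adjusted p = 0.0779) and -0.10 without control replicate 3. The span of Col18a1 overlaps Slc19a1 on the other strand, and the strandedness of the counting is not stated in the labels. Col15a1 had the same order in the controls, at 42.9, 27.0 and 46.0 CPM, and 36.1, 37.8 and 27.8 CPM with NAPQI (log2 fold change -0.19 ± 0.18, edgeR adjusted p = 0.776).

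The other collagens include the genes with the largest differences. Col22a1 encodes a collagen that sits on fibrils at tissue junctions, such as those between muscle and tendon. It stood at 4.67, 2.04 and 4.29 CPM in the controls and at 7.45, 14.5 and 9.39 CPM with NAPQI. All NAPQI libraries lay above all controls (7.26% of all tested genes did so, and 2 collagens), and NAPQI replicate 2 was the highest. The log2 fold change was 1.52 ± 0.33 (edgeR adjusted p = 0.188). DESeq2 gave 1.52 with an adjusted p of 0.00162, and the exact test of edgeR gave an adjusted p of 0.0039. Without any filter on low counts the quasi-likelihood adjusted p was 0.019, in a fit where 48 of 18591 tested genes passed. Over the 15 alternatives the log2 fold change was 1.21 to 1.76 and the adjusted p 0.00162 to 0.702.

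Col25a1 was the other collagen with non-overlapping, higher values. It encodes a collagen that spans the plasma membrane of neurons and is known for binding amyloid fibrils in brain and for motor innervation of muscle. It stood at 21.8, 15.7 and 14.6 CPM in the controls and at 30.2, 26.1 and 22.2 CPM with NAPQI. The gap between the highest control and the lowest NAPQI library was small, 21.8 against 22.2 CPM. The log2 fold change was 0.59 ± 0.17 (edgeR adjusted p = 0.343), and it was 0.48 to 0.80 over the 15 alternatives with an adjusted p of 0.11 to 1.00.

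The perivascular and smooth muscle list was the marker list with the gene of smallest p, Myh11, the smooth muscle myosin heavy chain. Myh11 stood at 70.6, 53.1 and 38.2 CPM in the controls and at 94.5, 94.3 and 91.4 CPM with NAPQI, above all controls as Col22a1 was (log2 fold change 0.79 ± 0.16, edgeR adjusted p = 0.173). Over the whole list 6 of 10 markers had a positive log2 fold change, 1 of them with an unadjusted p under 0.05. Of all tested genes 4.21% were counted in this direction. A negative value, down to -0.84, was found for 4 markers, 0 of them with an unadjusted p under 0.05. Among these were Acta2 (-0.28), Actg2 (-0.50) and Cspg4 (-0.29). The median of the list was 0.09 (-0.01 over all tested genes), and none was at 0 in all libraries. The part of these cells in the values of Col22a1 was not tested.

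Collagen VI is a beaded filament around cells, made of Col6a1, Col6a2 and a further chain, which can be Col6a3, Col6a4, Col6a5 or Col6a6. Col6a1 stood at 986, 755 and 862 CPM in the controls and 890, 783 and 689 CPM with NAPQI (log2 fold change -0.14 ± 0.12, edgeR adjusted p = 0.732). Col6a2 stood at 875, 592 and 817 CPM in the controls and 711, 660 and 550 CPM with NAPQI (log2 fold change -0.25 ± 0.14, edgeR adjusted p = 0.6). Both had control replicate 2 among the lower libraries, and the groups overlapped. Col6a3 stood at 258, 139 and 222 CPM in the controls and 257, 241 and 169 CPM with NAPQI, with a positive log2 fold change of 0.10 ± 0.20 (edgeR adjusted p = 0.895), which turned negative in part of the alternatives (-0.11 to 0.31).

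The genes of further chains on chromosome 9 lie in a row on the minus strand. Col6a6 lies from 105565008 to 105705359, Col6a5 from 105733277 to 105837842 and Col6a4 from 105866653 to 105973982 (GRCm39). Col6a6 stood at 51.2, 38.6 and 54.9 CPM in the controls and 33.5, 33.1 and 37.8 CPM with NAPQI, so the groups did not overlap, but NAPQI replicate 3 was close to control replicate 2. Its log2 fold change was -0.47 ± 0.14 (edgeR adjusted p = 0.335). Without control replicate 2 Col6a6 passed, at -0.60 with an edgeR adjusted p of 0.0475, in a fit where 58 of 14961 tested genes passed. Col6a5 stood at 41.2, 38.4 and 71.9 CPM in the controls and 50.5, 31.6 and 29.1 CPM with NAPQI, with control replicate 3 far above the other controls (log2 fold change -0.44 ± 0.24, edgeR adjusted p = 0.582). Over the alternatives the Col6a5 value ran from -0.72, without NAPQI replicate 1, to -0.10, without control replicate 3. Col6a4 stood at 60.4, 37.0 and 50.4 CPM in the controls and 58.1, 51.5 and 41.0 CPM with NAPQI, with full overlap (log2 fold change 0.03 ± 0.17, edgeR adjusted p = 0.973).

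The fibril-associated collagens have interrupted triple helices and lie on the surface of fibrils. Col9a2 was the most abundant of them, at 251, 205 and 278 CPM in the controls and 233, 188 and 146 CPM with NAPQI, a mean of 69.9 FPKM. Its partner chains in collagen IX were far lower per length, with Col9a3 at a mean of 2.11 FPKM and Col9a1 at 0.0564 FPKM. Col9a2 had a log2 fold change equal to -0.37 ± 0.15 (edgeR adjusted p = 0.501) and Col9a3 one of 0.08 ± 0.25 (edgeR adjusted p = 0.94). Col9a3 overlaps Tcfl5 on the other strand.

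Col16a1 and Col20a1, which belong to the same family, also had an unadjusted p under 0.05. Col16a1 stood at 188, 183 and 216 CPM in the controls and 192, 155 and 143 CPM with NAPQI (log2 fold change -0.26 ± 0.12, edgeR adjusted p = 0.523). Col20a1 stood at 20.6, 20.3 and 27.6 CPM in the controls and 19.3, 18.0 and 15.7 CPM with NAPQI (log2 fold change -0.36 ± 0.16, edgeR adjusted p = 0.517). Without control replicate 3 the Col20a1 value was -0.21 and no longer had an unadjusted p under 0.05. All NAPQI libraries lay below all controls for Col20a1, whereas for Col16a1 NAPQI replicate 1 lay above control replicates 1 and 2. Of the rest of the family, Col12a1 had a log2 fold change of -0.03, Col14a1 one of -0.29 and Col19a1 one of 0.10, with edgeR adjusted p of 0.935, 0.638 and 0.966.

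Among the other membrane-spanning collagens, Col13a1, found at cell adhesions and the neuromuscular junction, stood at 9.29, 6.99 and 13.2 CPM in the controls and 8.25, 5.50 and 6.35 CPM with NAPQI (log2 fold change -0.55 ± 0.26, edgeR adjusted p = 0.544). Its groups overlapped, control replicate 3 was the highest library, and without that library the value was -0.28. Col17a1, the hemidesmosomal collagen of epithelia, had a log2 fold change of -0.49 ± 0.33 at 1.80 to 4.80 CPM (edgeR adjusted p = 0.656), and Col23a1 one of 0.02 ± 0.14 (edgeR adjusted p = 0.971). Col7a1, which forms the anchoring fibrils of epithelia, had one of -0.13 ± 0.20, Col26a1 one of -0.23 ± 0.18, and the short-chain network collagens Col8a1 and Col8a2 had 0.02 ± 0.15 and -0.07 ± 0.13. Their edgeR adjusted p was 0.864, 0.7, 0.985 and 0.886, and the groups overlapped for each of these 7 genes. The untested genes were Col28a1, Col9a1 and Col10a1, with 53, 28 and 12 counts over all 6 libraries. Col10a1, a marker of cartilage under ossification, overlaps Nt5dc1 on the other strand.

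**Figure D4:**
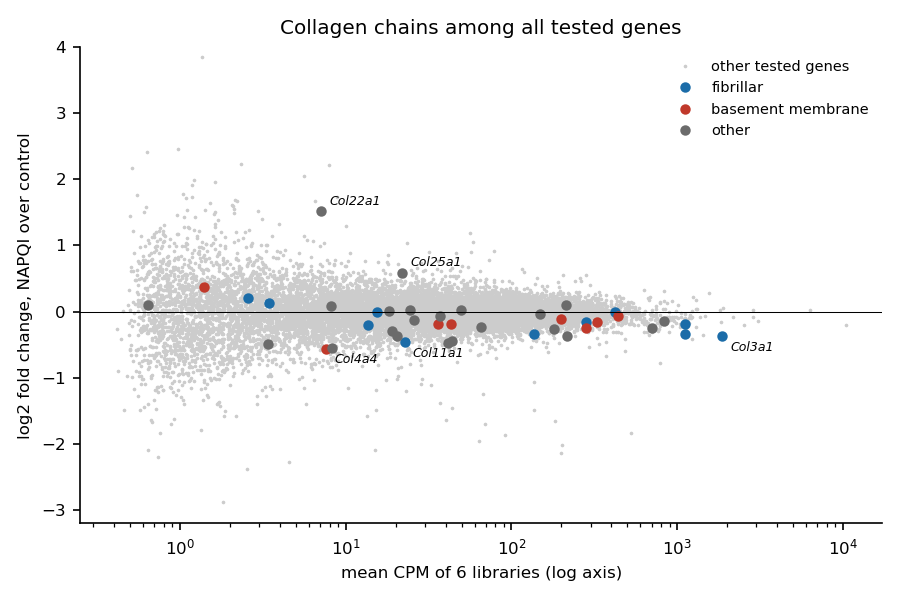
Log2 fold change (NAPQI over control) against mean CPM of the 6 libraries on a log axis for all 14736 tested genes (grey) and the 41 tested collagens (coloured by class). The abundant collagens near 1000 CPM lie slightly below 0, and Col22a1 at 1.52 lies outside most genes of its level.

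The genes that make, export, process, bind and degrade collagen were listed as 102 genes in 7 lists, of which 94 were tested. None had an adjusted p under 0.05 by the quasi-likelihood test of edgeR, and 9 had an unadjusted p under 0.05 with a negative and 3 with a positive log2 fold change, where 5.03% and 4.21% of all tested genes did. The counts of the single lists below are read against the same shares. Without control replicate 2, Fbln1 (-0.76, edgeR adjusted p = 0.0143) and Tgfbi (-0.70, edgeR adjusted p = 0.0184) passed. In that fit 58 of 14961 tested genes passed, against 12 of 14736 with all libraries. The lowest adjusted p with all libraries was 0.278, that of Colgalt2.

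Enzymes and chaperones of the endoplasmic reticulum fold and modify the chains before export. Of 19 tested, 14 were negative, the median was -0.09, and 1 in each direction had an unadjusted p under 0.05. Colgalt2, which adds galactose to hydroxylysine of collagen, stood at 24.3, 19.5 and 17.1 CPM in the controls and 31.4, 28.1 and 30.2 CPM with NAPQI, so that the groups did not overlap (log2 fold change 0.56 ± 0.15, edgeR adjusted p = 0.278). Fkbp10, a collagen chaperone whose span overlaps Nt5c3b, had one of -0.34 ± 0.12 (edgeR adjusted p = 0.415). Genes of export and of collagen transcription (10 tested) had a median of 0.02 with 0 at an unadjusted p under 0.05; the lowest p were those of Creb3l1, a transcription factor of collagen genes (-0.19 ± 0.11, edgeR adjusted p = 0.593), and Sec23a, a coat protein of export vesicles (0.19 ± 0.11, edgeR adjusted p = 0.613).

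Outside the cell, propeptides are cut off and chains are cross-linked. Of 10 tested genes of this step 6 were negative and the median was -0.14. Loxl1, a cross-linking lysyl oxidase, had -0.36 ± 0.13 (edgeR adjusted p = 0.422) and Pcolce, an enhancer of propeptide removal, -0.26 ± 0.13 (edgeR adjusted p = 0.549). Pcolce overlaps Fbxo24. The 10 collagen receptors had a median of 0.08 and 0 genes at an unadjusted p under 0.05, with the endocytic receptor Mrc2 at 0.26 ± 0.14 and the tyrosine kinase Ddr2 at 0.12 ± 0.17 (edgeR adjusted p = 0.591 and 0.85). Genes of collagen degradation and its inhibitors had a median of -0.13 over 13 tested, with 10 negative. The metalloproteinase inhibitor Timp3 had 0.29 ± 0.13 and the membrane metalloproteinase Mmp15 0.22 ± 0.10 (edgeR adjusted p = 0.519 and 0.523). Timp3 overlaps Syn3. In this list 1 gene had an unadjusted p under 0.05 with a negative and 2 with a positive log2 fold change.

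Proteins that coat fibrils or bind basement membranes had medians close to those of the collagens. The median was -0.17 for 15 fibril-associated genes (11 negative, 3 at an unadjusted p under 0.05, all negative) and -0.13 for 17 basement membrane partners (12 negative, 3 at an unadjusted p under 0.05, all negative). Tgfbi, a collagen-binding matrix protein, stood at 218, 141 and 217 CPM in the controls and 148, 134 and 117 CPM with NAPQI, and Tnxb, a tenascin of collagen fibrils, had a log2 fold change equal to -0.44 ± 0.14 (edgeR adjusted p = 0.372). Fbln1, a matrix glycoprotein of basement membranes and elastic fibres, stood at 124, 75.2 and 133 CPM in the controls and 80.8, 80.6 and 66.0 CPM with NAPQI. For Tgfbi and Fbln1 control replicate 2 lay within the NAPQI range while the other controls lay above them, and the log2 fold changes were -0.53 ± 0.15 and -0.55 ± 0.17 (edgeR adjusted p = 0.333 and 0.372). Lama1, the laminin chain of early basement membranes, had -0.34 ± 0.12 (edgeR adjusted p = 0.417).

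The genes have long transcripts, and length bears on the values. The median length given for the 44 collagens was 7542.5 nucleotides against 4436 for all tested genes, and across the tested genes longer ones had higher log2 fold changes (Spearman rho 0.216 over genes, which are no independent replicates). Longer genes thus leaned towards positive and collagens towards negative values. The trend was uneven over the libraries. Length correlated with the deviation from each gene's average log2 CPM at -0.30 in control replicate 3 and at -0.10 to 0.17 in the others. Without control replicate 3, rho of the log2 fold changes was 0.10. With all libraries and the length trend of each removed, that rho was -0.00935. The median of the collagens was then -0.20, and those of fibrillar, basement membrane and other collagens were -0.24, -0.19 and -0.16. The count at an unadjusted p under 0.05 was again 9 negative and 2 positive, where 4.8% and 4.3% of all tested genes were counted in these directions.

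**Figure D5:**
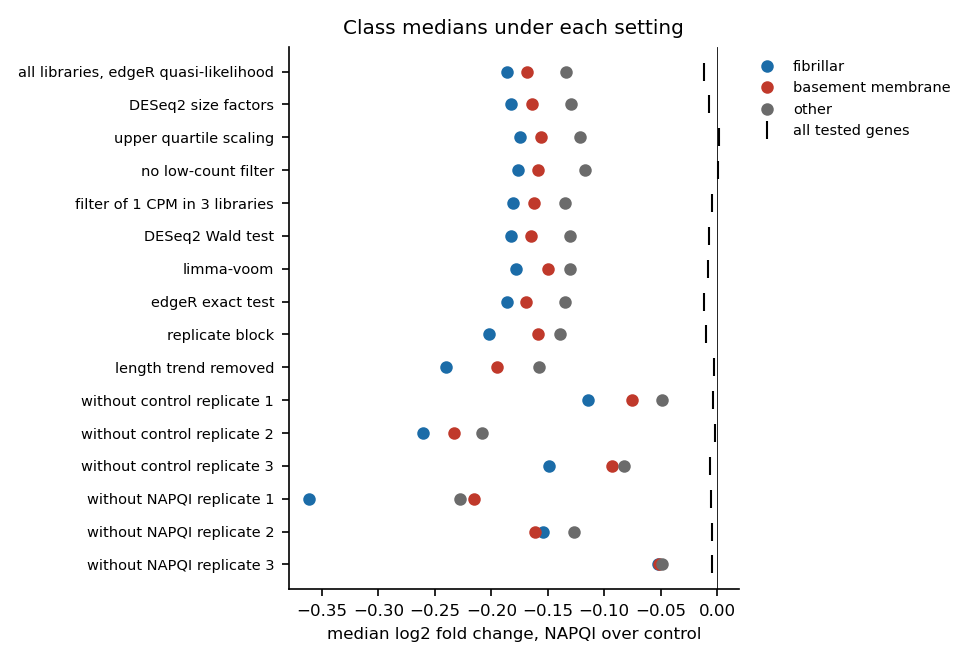
Median log2 fold change (NAPQI over control) of the fibrillar, basement membrane and other collagens (points) and of all tested genes (black ticks) with all libraries and under each of the 15 alternative settings. All class medians lie below the median of all genes, and they range from -0.36 (fibrillar, without NAPQI replicate 1) to -0.05 (without NAPQI replicate 3).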

How the data were processed

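Total RNA libraries were prepared with the NEBNext Ultra II RNA kit, per the labels' protocols. The submitters' processing notes name FastQC 0.11.8, HISAT2 2.0.5, HTSeq 0.9.1 and the build GRCm39; their settings and the strand setting are not stated in the labels. The deposited table holds read counts per gene with no normalization and FPKM values, per the file headers. A second deposited table gives the authors' group means as a normalised count signal, their ratio (fold change), its log2 and their p-values; the labels call it a DESeq table.

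Samples were grouped by title. Each deposited table had 1 emptied line, which is not analysed here. The test used edgeR 4.0.16 (R 4.3.3): filterByExpr with a minimum count of 10, TMM scaling, the two-sided quasi-likelihood F-test over all tested genes, p adjusted by Benjamini-Hochberg, threshold 0.05. CPM uses TMM-scaled library sizes. The SE is the absolute log2 fold change over the square root of F. In a rank test 3 against 3 libraries cannot give a two-sided p under 0.1. Alternatives were DESeq2 1.42.0 (its scaling and its Wald test), limma 3.58.1 (voom), the edgeR exact test, upper quartile scaling, other low-count filters, a replicate block, other thresholds, removal of each library's length trend (lowess, span 0.3) and each library left out in turn. The gene test was tested on simulated data. Pairs of libraries within a group differed by more than sampling noise (mean chi-square per gene of 7.43 to 19.6).

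Members, classes and lists were chosen with earlier results of these data known. All members are accounted for; values in every library are given for those with an unadjusted p under 0.05, the 4 most abundant of each class and the 2 with the smallest p in each class, and further members were named after their values were seen. In each list of collagen biology the 2 genes with the smallest p are named; marker lists are given by counts and sums, with a marker named where a statement turns on it. Promoters are RefSeq windows of GRCm38.p6, a different build from that of the deposited coordinates. Python 3.11.15 with matplotlib 3.10.9 drew the plots.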

Additional observations from a re-analysis of the deposited data

How the results depend on the processing

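In the main fit 0 collagens had an adjusted p under 0.05. This count was 1 with no low-count filter, by the DESeq2 Wald test and by the exact test of edgeR (Col22a1 in each). It was 0 to 1 with each library left out in turn (Col6a6 without control replicate 2). In the other settings and at an adjusted p under 0.1 it was 0, and at an unadjusted p under 0.05 it was 11. More genes of all kinds were called in the fits that called a collagen. Over all tested genes 48 of 18591 were called with no low-count filter and 58 of 14961 without control replicate 2. The DESeq2 Wald test called 75 of 14736 and the exact test of edgeR 115, against 12 in the main fit. Left-out libraries moved the median over all tested collagens from -0.16 to between -0.24 and -0.05, the fibrillar median to between -0.36 and -0.05, the basement membrane median to between -0.23 and -0.05 and the other median to between -0.23 and -0.05; every class median was negative in all 15 alternatives. Of the 41 tested genes 29 kept the sign of their log2 fold change in every alternative that tested them, 24 of them negative. Of 614 values for single genes, 610 stayed on the same side of the threshold, and the 4 that did not are the calls named above. That share says little about stability, since 0 collagens passed in the main fit and limma-voom, for example, called 1 gene of all tested. The count of called genes in the 7 lists of collagen biology was 0 to 2 with libraries left out and 0 elsewhere; these counts were added after the data were seen. With the replicate block 0 collagens were called, and 1 gene of all tested was called in place of 12. The medians were then -0.16 over all collagens, -0.20 for fibrillar, -0.16 for basement membrane and -0.14 for other collagens. Deviations correlated above 0.1 for 0 of 3 same-numbered pairs, and pairs of different numbers ran from -0.18 to 0.21. With 3 libraries a group, each taken from its group's mean, this cannot decide whether replicates were paired. With 3 libraries a group, Col19a1, Col4a3, Col5a3, Col17a1 and Col22a1, all of low counts, had the largest standard errors of the tested collagens.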
